A study of Homo sapiens with 8 samples.

Results

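LSD1 occupancy was examined at 7 genes that are used as stem cell genes: SOX2, POU5F1, NANOG, KLF4, MYC, CD44 and ALDH1A3. Their members are the LSD1 summits that lie in a fixed window of the hg19 genome around each gene, and the rule that places them uses positions and no signal. The genes were picked with earlier results of these data known. Together the windows span 302 kb and hold 75 of the 201526 summits of the series, with 16 and 18 in replicates 1 and 2 of parental cells and 21 and 20 in those of KO1. Neighbouring summits of any library that were at most 500 bp apart were chained into 1 region, which can thus span more than 500 bp. The chaining gave 28 regions in the windows out of 68148 over chromosomes 1 to 22 and X.

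The study set parental MDA-MB-231, a line of human breast cancer cells, against the RCOR2-KO1 line made from them by CRISPR/Cas9, which lacks the LSD1 partner RCOR2. The cells grew in DMEM with serum and received no treatment in either group. The methods say that cells were singled out, expanded and checked and that several KO clones were then pooled, in a passage that may refer to another line, MC38, alone, so whether the KO1 line used here is 1 clone is unsure. An effect of RCOR2 loss and a difference that arose while the line was made cannot be told apart. LSD1 was profiled by CUT&RUN, in which an antibody directs a nuclease to the chromatin around its target and the released fragments are sequenced, in 2 libraries of each genotype, and 4 libraries with normal rabbit IgG served the authors as input. Peaks were called in each library by itself, and each deposited summit is the single base of highest signal in a peak, with a −log10 of a p or q value.

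That value grows with the depth of a library, which is unknown here. It was therefore read only as a within-list percentile, the share of a library's own summits at or below it, where 100 is the strongest. The lists held 47354 to 54467 summits, and their median −log10 values were 16.3 to 18.6. Errors are the SD over the 2 libraries of a genotype, and pairs of values follow the order of replicates 1 and 2. With 2 libraries against 2, the exact permutation test cannot give a two-sided p below 0.333, and although the methods describe the assay as a repeated experiment, neither they nor the labels name separate cultures, so the p-values measure only the spread between these libraries, which may in part be technical.

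LSD1 (KDM1A) removes methyl groups from mono- and dimethylated lysine 4 of histone H3, a mark of active promoters and enhancers, and acts in complexes with a CoREST protein, of which RCOR2 is one, and with HDAC1 or HDAC2. In embryonic stem cells LSD1 sits at many active enhancers, and its removal of the mark accompanies the silencing of such enhancers when cells differentiate. SOX2, POU5F1 (OCT4) and NANOG are the transcription factors at the core of pluripotency, KLF4 and MYC complete or assist the factor sets that reprogram somatic cells, and CD44 and aldehyde dehydrogenase activity, to which ALDH1A3 contributes, are used to sort breast cancer stem cells.

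The promoters of 5 of the 7 genes matched a RefSeq table of GRCh38.p14 and are shown because they differ widely in their content of CpG dinucleotides, which stand in capitals. Each sequence is 300 bases long and runs 5′ to 3′ along the gene, from 250 bases before its start. POU5F1 and MYC had no entry. The build differs from that of the summits, so no summit was placed on these sequences.
SOX2: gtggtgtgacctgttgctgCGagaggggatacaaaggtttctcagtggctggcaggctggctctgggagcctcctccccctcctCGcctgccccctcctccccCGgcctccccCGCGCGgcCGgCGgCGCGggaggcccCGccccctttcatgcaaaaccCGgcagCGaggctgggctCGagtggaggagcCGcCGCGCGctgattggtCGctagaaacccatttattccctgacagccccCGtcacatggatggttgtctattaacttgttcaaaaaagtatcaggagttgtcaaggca
NANOG: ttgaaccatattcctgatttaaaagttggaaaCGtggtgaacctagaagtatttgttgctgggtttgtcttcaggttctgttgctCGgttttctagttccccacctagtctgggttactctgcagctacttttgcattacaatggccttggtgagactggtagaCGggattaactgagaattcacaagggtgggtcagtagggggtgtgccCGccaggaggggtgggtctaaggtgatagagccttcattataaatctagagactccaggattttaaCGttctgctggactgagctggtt
KLF4: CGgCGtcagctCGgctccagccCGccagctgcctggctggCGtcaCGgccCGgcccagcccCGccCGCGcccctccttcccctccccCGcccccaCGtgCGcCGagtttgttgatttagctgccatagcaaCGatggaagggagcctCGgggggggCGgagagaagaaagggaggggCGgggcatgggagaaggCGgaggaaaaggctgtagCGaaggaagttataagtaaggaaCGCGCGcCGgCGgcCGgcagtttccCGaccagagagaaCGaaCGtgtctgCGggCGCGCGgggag
CD44: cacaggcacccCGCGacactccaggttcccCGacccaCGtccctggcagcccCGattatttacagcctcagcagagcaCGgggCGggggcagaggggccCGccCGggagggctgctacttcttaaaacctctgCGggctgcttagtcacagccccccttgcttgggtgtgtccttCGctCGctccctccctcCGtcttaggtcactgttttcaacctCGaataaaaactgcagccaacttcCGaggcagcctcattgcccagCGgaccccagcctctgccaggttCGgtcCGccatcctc
ALDH1A3: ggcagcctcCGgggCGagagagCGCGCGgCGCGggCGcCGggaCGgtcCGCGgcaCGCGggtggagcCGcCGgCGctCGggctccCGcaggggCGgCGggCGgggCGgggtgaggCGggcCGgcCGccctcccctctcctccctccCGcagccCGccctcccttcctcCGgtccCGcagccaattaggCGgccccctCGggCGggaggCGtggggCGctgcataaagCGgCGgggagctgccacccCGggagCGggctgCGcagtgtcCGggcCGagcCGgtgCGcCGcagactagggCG
The NANOG promoter held 5 CpG dinucleotides, against a median of 14 over the 35116 promoters of the table, while those of CD44, SOX2, KLF4 and ALDH1A3 held 18, 20, 33 and 46. The ALDH1A3 promoter had as many CpG or more than 97.6% of all promoters in the table. The letters ATGCAAA, which are the octamer bound by POU factors without its last base, were searched on both strands, a choice made after the sequences had been seen, and occurred once each in the SOX2 and NANOG promoters, at bases 151 and 131 of the sequences shown, and in 4.46% of all promoters. The full octamer was in 0 of the 5 promoters shown and in 1.77% of all promoters. A match of letters is a description and does not by itself show binding.

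The genes differed in how much LSD1 their windows held. Regions found in all 4 lists were present at SOX2, POU5F1, KLF4, MYC and CD44, whereas the NANOG window had no summit in any library and the ALDH1A3 window had none that was found in more than 2. Of the 28 regions, 13 were in all 4 lists, 2 in 3 lists, 4 in 2 lists and 9 in a single list. The share in all 4 lists was 46.4%, against 52.6% of all regions of the genome, and the share in a single list was 32.1%, against 21.7%. By length, KLF4 had the densest window, with 1.35 ± 0.222 summits per 10 kb (mean ± SD over the 4 libraries). MYC followed with 0.865 ± 0.192 and CD44 with 0.833 ± 0.113, and these neighbours in the order differed by less than their spread. POU5F1 had 0.648 ± 0.185 and SOX2 had 0.417 summits per 10 kb in every library. ALDH1A3 had 0.132 ± 0.0877 summits per 10 kb.

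As a background, chromosomes 1 to 22 and X were divided into consecutive stretches of the length of each window, up to the last summit of each chromosome. Counted in each list by itself, 0.986% to 4.10% of stretches held as many summits as the KLF4 window or more, and 0.824% to 3.69% as many as the CD44 window. The shares were 3.37% to 11.3% for MYC, 10.5% to 27.2% for POU5F1 and 25.1% to 27.9% for SOX2. For ALDH1A3 they were 43.8% to 45.3% in the 3 libraries with a summit there. A stretch of the length of the NANOG window was empty in all 4 lists in 65.7% of cases, so an empty window of this size was common. The stretches include gaps of the assembly and regions poor in genes, and genes as a class were not compared here.

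**Figure D1:**
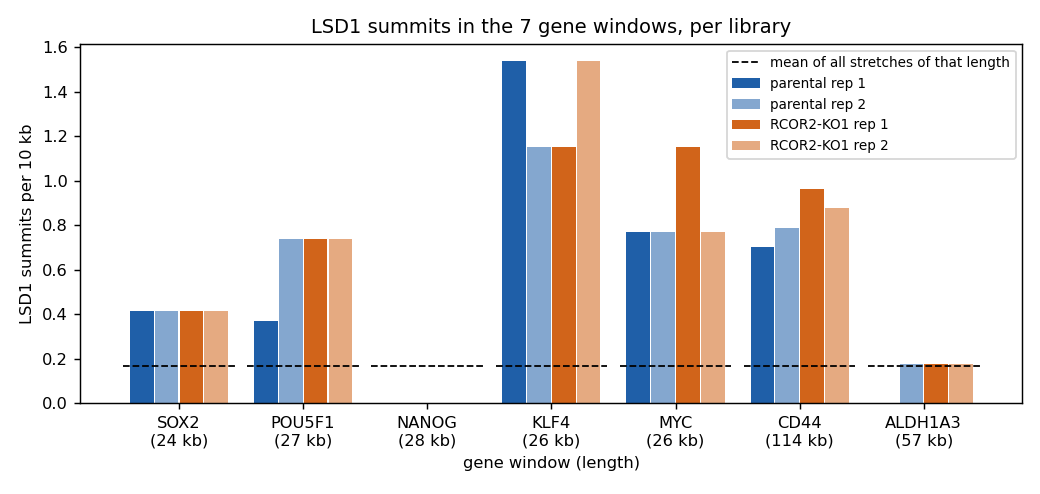
LSD1 summits per 10 kb (vertical axis) in the windows of the 7 genes (horizontal axis, with the window length), 1 bar per library in parental (blue) and RCOR2-KO1 (orange) cells, and the mean of all genomic stretches of the same length as a dashed line. KLF4 has 1.15 to 1.54 summits per 10 kb in each library, NANOG has none, and ALDH1A3 lies near the background.

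Among the core pluripotency genes, LSD1 was found close to the middle of the SOX2 window. SOX2 encodes an HMG-box factor that pairs with POU5F1, and the long noncoding gene SOX2-OT overlaps it. The window had 1 region, chr3:181429664-181429789, found in all 4 lists, whose mean position was 1.30 kb from the middle of the window on the side of the gene's start. An annotation of hg19 was not used here, so distances are from the window's middle or edges and exons or introns are not given. The within-list percentile was 24.8 and 52.1 in parental replicates 1 and 2, and 40.4 and 50.5 in KO1 replicates 1 and 2. The lowest value is a parental library, the others lie close together, and the groups overlap. The means were 38.5 ± 19.3 and 45.4 ± 7.11, a difference of 6.99 points in KO1 (exact permutation test, two-sided, p = 1), which turned to -6.68 without parental replicate 1. The mean percentile of the SOX2 region over the 4 libraries was 41.9, below the median of 60.1 over all regions found in all 4 lists. Its difference between genotypes was smaller than the gap between the parental libraries.

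POU5F1, the POU-domain partner of SOX2, lies in a crowded part of the genome. In the RefSeq table, TCF19 and CCHCR1 are its neighbours on the side of its 3′ end and the noncoding PSORS1C3 on the side of its start. The stronger of its regions, chr6:31126137-31126268, lay 9.33 kb from the middle of the window on the side of TCF19 and CCHCR1, so its assignment to POU5F1 rests on the window alone. It was at percentile 89.8 and 93.7 in parental and at 76.8 and 95.6 in KO1 cells. Both the highest and the lowest value were thus from KO1 libraries. The means were 91.8 ± 2.79 and 86.2 ± 13.2, a difference of -5.55 (exact permutation test, two-sided, p = 1) that was 3.82 without KO1 replicate 1. A weak region at chr6:31143659-31143946, 8.29 kb from the middle on the side of the start, was missing in parental replicate 1 and had a percentile of 3.70 in parental replicate 2, and of 12.2 and 16.5 in KO1 cells.

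NANOG, the homeobox factor of the same circuit, had no summit between 7931 and 7959 kb of chromosome 12 in any of the 4 lists. The nearest summit outside the window was 54.2 to 54.3 kb beyond its upper edge in each library, at percentiles of 57.2 to 78.3. Absence from a list means only that no peak passed the authors' threshold at this depth.

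KLF4, a zinc finger factor that joins SOX2, POU5F1 and MYC in reprogramming, had 3 regions in all 4 lists, and at each of them the genotypes did not overlap, with KO1 above parental cells at 1 and below at 2. Over the genome, 19.6% of the regions in all 4 lists had KO1 above without overlap and 22.4% had it below, so such a separation was common. The strongest, chr9:110252039-110252460, lay 2.23 kb from the middle of the window on the side of the gene's start. Its percentile was 72.9 and 65.4 in parental and 62.7 and 64.2 in KO1 cells, so that KO1 was lower by a narrow margin (69.2 ± 5.33 against 63.5 ± 1.07, difference -5.67, which was -1.90 without parental replicate 1). Both other regions lay on the side of the 3′ end and moved in opposite directions.

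The region at chr9:110243477-110243573, 6.49 kb from the middle, was at percentile 32.2 and 43.5 in parental cells and at 8.99 and 16.4 in KO1 cells. Both KO1 values were thus far below both parental values, and the mean fell from 37.9 ± 7.95 to 12.7 ± 5.25, a difference of -25.2 points that was higher than that of only 4.74% of all regions found in all 4 lists. The −log10 values behind it were 10.8 and 15.2 in parental and 4.88 and 6.24 in KO1 cells. About 3 kb away, the region at chr9:110246581-110246610 was at percentile 26.4 and 24.9 in parental and at 32.9 and 43.5 in KO1 cells. Here KO1 was higher, with means of 25.6 ± 1.08 and 38.2 ± 7.44 and a difference of 12.6 points, higher than that of 84.2% of all regions. Each of the 3 KLF4 differences had p = 0.333, the smallest the exact permutation test allows, and an adjusted p of 0.793 over all regions of the genome found in all 4 lists.

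Single weak summits completed the KLF4 window, 1 in KO1 replicate 2 at percentile 1.197 and 1 in parental replicate 1 at 1.25. Just outside it, 4.11 to 4.30 kb beyond the edge on the side of the gene's start, every library had a strong summit at percentiles of 90.8 to 97.6. The strongest LSD1 signal near KLF4 therefore lay beyond the fixed window.

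MYC, a basic helix-loop-helix factor that drives growth and is a well-known target of Wnt/β-catenin signaling, had strong LSD1 regions on both sides of the middle of its window. The region at chr8:128747811-128747937 lay 3.14 kb from the middle on the side of the gene's start, where the noncoding gene CASC11 is the neighbour. Its percentile was 94.4 and 97.9 in parental and 98.6 and 93.9 in KO1 cells. The KO1 libraries were thus the highest and the lowest of the 4, and the means of 96.1 ± 2.44 and 96.3 ± 3.33 differed by 0.123 points (exact permutation test, two-sided, p = 1).

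The other strong MYC region, chr8:128754850-128755269, lay 3.99 kb from the middle on the side of the 3′ end. It was at percentile 94.0 and 93.7 in parental and at 85.8 and 97.1 in KO1 cells, again with the parental libraries between the KO1 libraries. The means were 93.9 ± 0.202 and 91.4 ± 7.98 (difference -2.44, exact permutation test, two-sided, p = 1), and the difference was 3.21 without KO1 replicate 1. Between the strong regions, KO1 replicate 1 alone had a weak summit at percentile 14.8.

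CD44, the hyaluronan receptor at the cell surface that marks breast cancer stem cells, held 15 of the 28 regions in a window of 114 kb, 6 of them in all 4 lists. It also held the strongest LSD1 region of the 7 genes. The region at chr11:35187840-35188234, 38.0 kb from the upstream edge of the window, had rank 34 of 47354 summits in parental replicate 1 and rank 6 of 54467 in parental replicate 2, and ranks 39 of 49586 and 56 of 50119 in KO1 replicates 1 and 2. It was thus among the very strongest summits of every library. Its mean percentile differed by -0.0538 points between the genotypes, so although both KO1 values were below both parental values (p = 0.333, exact permutation test), the region was at the ceiling of the scale in each.

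A further pair of CD44 regions was strong in every library. The region at chr11:35166277-35166996 was at percentile 91.6 in both parental libraries and at 89.7 and 95.8 in KO1 cells, where the groups overlap (91.6 ± 0.0231 against 92.7 ± 4.29). The region at chr11:35236527-35236537 was at 82.0 and 89.8 in parental and at 92.7 and 94.9 in KO1 cells, so that both KO1 libraries were higher (85.9 ± 5.50 against 93.8 ± 1.56, difference 7.91, p = 0.333, exact permutation test). The 4 summits of this last region lay within 10 bp of each other.

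In the same window, regions of middle rank differed more, and in both directions. At chr11:35257677-35258206, near the downstream edge of the window, the percentile was 48.1 and 43.8 in parental and 65.8 and 67.7 in KO1 cells. The gap between the genotypes was larger than the gap within either, with means of 45.9 ± 3.07 and 66.7 ± 1.35. The difference was 20.8 points (p = 0.333, exact permutation test), higher than that of 93.0% of all regions found in all 4 lists. The summit of parental replicate 2 lay 490 bp from the nearest other summit, so the region was joined across all 4 lists at 500 bp but not at 250 bp, nor without KO1 replicate 2. At chr11:35196334-35196520, the percentile was 43.3 and 70.8 in parental and 39.0 and 17.4 in KO1 cells. KO1 was lower (57.1 ± 19.4 against 28.2 ± 15.3, difference -28.9, p = 0.333, exact permutation test), but parental replicate 1 and KO1 replicate 1 were close, and the difference was -15.1 without parental replicate 2. The remaining region of all 4 lists, chr11:35156773-35157326, was weak throughout, at 6.29 and 9.14 in parental and at 8.83 and 12.6 in KO1 cells.

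CD44 was also the only one of the 7 genes with regions that both libraries of a genotype had and the other genotype lacked. The region at chr11:35184945-35184970 was found in both KO1 lists at percentiles of 88.5 and 84.1, with −log10 values of 58.1 and 43.6, and in neither parental list, a pattern that 4.99% of the genome's regions in both lists of at least 1 genotype shared. The nearest parental summits were 2870 and 2891 bp away and belonged to the strongest CD44 region, which the KO1 lists also had, 3264 and 2913 bp away. Over the genome, 2469 regions were in both KO1 lists and no parental list, and in 53 of these (2.15%) the lower of the KO1 percentiles was as high as here. Only 5 of the 53 were as far from any parental summit. This region was singled out after its values had been seen, and whether the parental libraries had signal there as a shoulder of the neighbouring peak was not tested, since a summit list gives 1 base per peak. The other region of KO1 alone, chr11:35200822-35201165, was weak, at 29.7 and 6.997.

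The CD44 window held 8 and 9 summits in the parental and 11 and 10 in the KO1 libraries, so that the genotypes did not overlap (exact permutation test, two-sided, p = 0.333). Both KO1 counts include the 2 regions of KO1 alone described above, so this is not a separate observation. In the other windows the counts of the genotypes overlapped or were equal. How many genomic stretches of this length separate the genotypes in the same way was not tested. A region at chr11:35178525-35178918 was missing in parental replicate 1 and was at percentile 10.9 in parental replicate 2, against 27.5 and 32.7 in KO1 cells. The other 6 CD44 regions were each found in 1 or 2 libraries without separating the genotypes, at percentiles between 0.222 and 12.5.

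**Figure D2:**
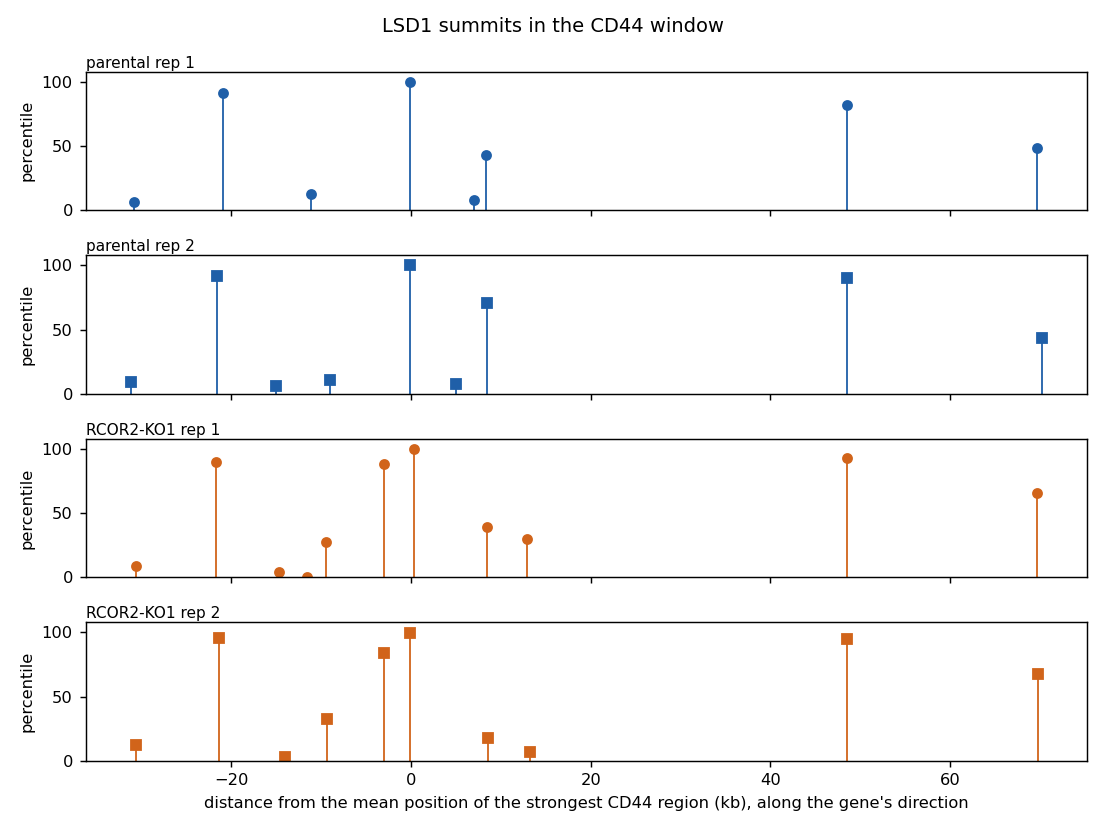
LSD1 summits in the CD44 window, 1 panel per library, with the distance from the strongest CD44 region in kb along the gene (horizontal axis) and the within-list percentile of each summit (vertical axis). The summit at 0 kb is near 100 in all 4 libraries, and the summit about 3 kb before it, at 88.5 and 84.1, is drawn in both KO1 panels and in neither parental panel.

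ALDH1A3 is an enzyme that oxidises retinaldehyde to retinoic acid and a main source of aldehyde dehydrogenase activity in breast cancer stem cells. Its window held few LSD1 summits, all of low rank. By the mean count over the 4 libraries, 42.4% of genomic stretches of that length held as many or more. Parental replicate 1 had no summit there. A region at chr15:101459075-101459104, 49.1 kb from the upstream edge, was in parental replicate 2 at percentile 20.3 and in KO1 replicate 1 at 1.94. KO1 replicate 2 had instead a summit at position 101429809, 19.8 kb from the upstream edge, with a −log10 value of 4.19. No position was shared by both libraries of a genotype, so percentiles could not be compared there, and the counts of 0 and 1 summits in parental and 1 and 1 in KO1 cells overlap (exact permutation test, two-sided, p = 1). The nearest summit outside was 6.02 to 6.05 kb past the downstream edge in all 4 libraries, at percentiles of 34.7 to 59.0, on the side of the neighbouring gene LRRK1.

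**Figure D3:**
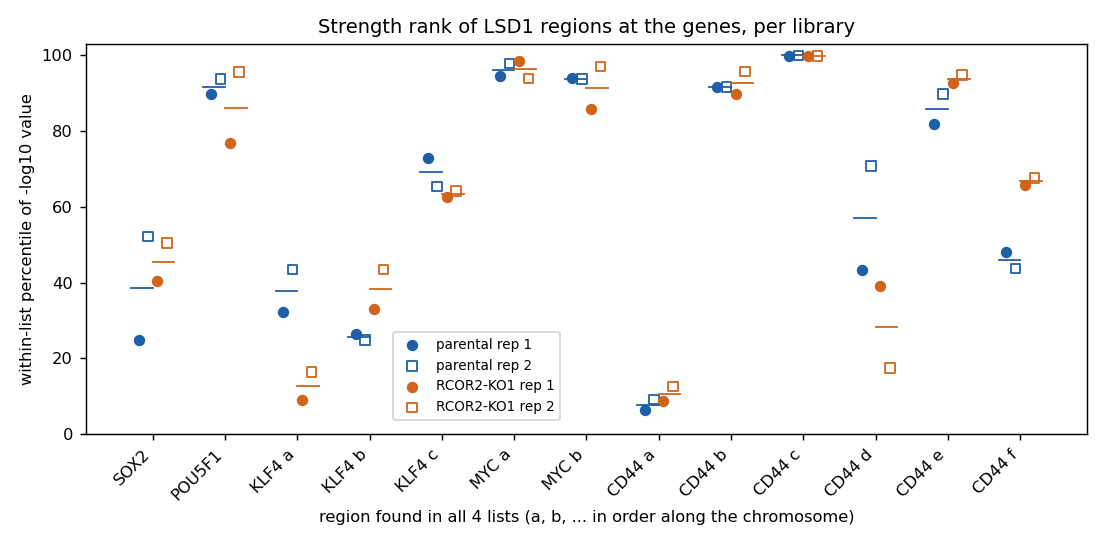
Within-list percentile of the −log10 value (vertical axis) of the 13 regions found in all 4 lists (horizontal axis, letters in order along the chromosome within a gene), with a point for each library and a short line for the mean of each genotype. The regions of POU5F1 and MYC and 3 of the CD44 regions have means above 85 in each genotype, and KLF4 a and CD44 f show the genotypes well apart in opposite directions.

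Over the 13 regions found in all 4 lists, the difference between KO1 and parental cells ranged from -28.9 to 20.8 percentile points, and 7 were above 0 and 6 below. The median difference was 0.123 points, against -0.578 over the 35861 such regions of the genome, whose 5th and 95th percentiles were -24.7 and 24.0. Both KO1 values were above both parental values at 3 of the 13 regions and below them at 4. Of all regions of the genome found in all 4 lists, 19.6% were above and 22.4% below in this way. Of the 17 regions in the windows that were in both lists of a genotype, 0 were in the parental lists alone and 2 in the KO1 lists alone, against 5.84% and 4.99% over the genome. These counts are small, and whether they differ from the shares of the genome as a whole was not tested.

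The 4 regions that ranked highest differed least in points. Of the 13 regions, 4 had a mean percentile of 90 or above over the 4 libraries, where 10.9% of all regions of the genome found in all 4 lists did. Their differences were 0.123 and -2.44 at MYC and 1.16 and -0.0538 at CD44. This depends on the cut, as regions just below it, at mean percentiles of 89.8 and 89.0, differed by 7.91 at CD44 and -5.55 at POU5F1. A percentile leaves little room near 100, and a shift common to every summit of a library is invisible on this scale. Over the stretches of 10 Mb that hold the windows, the median difference of all regions lay between -2.89 around NANOG and 2.44 around MYC, with 2.42 around CD44 and 0.853 around KLF4. The part of these regional shifts in the values above was not tested.

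**Figure D4:**
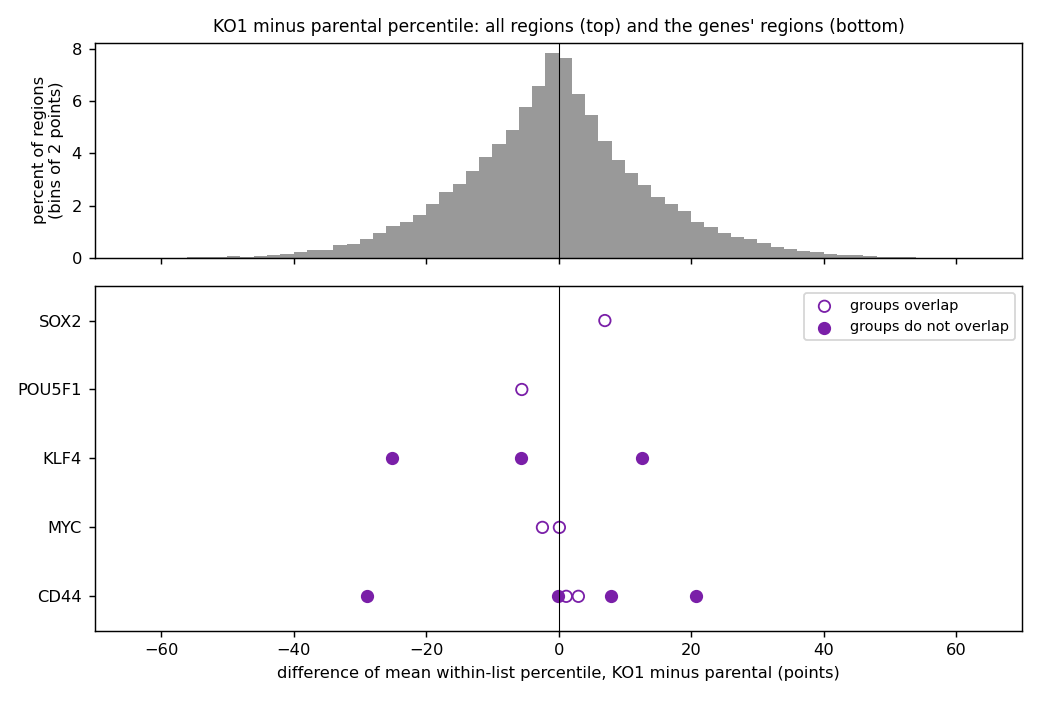
Difference of the mean within-list percentile, KO1 minus parental, in points (horizontal axis), as the share of all 35861 regions found in all 4 lists (top) and for the 13 regions of the genes (bottom, filled where the genotypes do not overlap). The regions of KLF4 and CD44 spread from -28.9 to 20.8 on both sides of 0, and those of MYC lie within 3 points of it.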

How the data were processed

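MDA-MB-231 libraries of LSD1 CUT&RUN were analysed, 2 from parental and 2 from RCOR2-KO1 cells; the 4 IgG libraries were not used here. According to the submitters' processing notes, the tools were FastQC 0.11.2, Bowtie2 2.3.3.1, Picard and MACS2 2.1.0, and the genome build was hg19. The authors deposited 1 summit per peak and library, scored by the −log10 of its p or q value, and the lowest value of each list was 1.31 to 1.40. The sequencing depth, the width of peaks and their fold were not used here.

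Python 3.11.15 with pandas 2.3.3 and numpy 2.4.6 was used. Summits were ranked within each list and, on chromosomes 1 to 22 and X, chained into regions with gaps of at most 500 bp; a region takes the highest of its summits in each list. A region belongs to a gene if it touches the window. The genotypes' percentiles were set against each other with an exact two-sided permutation test, adjusted by Benjamini-Hochberg over all regions found in all 4 lists. The steps were tested on simulated lists of well-separated regions with little noise and planted changes, a simpler setting than these data. All 7 genes were named. The genes, windows and tests were chosen with earlier results of these data known. Other stem cell genes need an annotation of hg19 and were not analysed here. RefSeq tables of GRCh38.p14 gave neighbouring genes and promoter sequences only, and strands of the genes are general knowledge. Alternatives were joining distances of 250 and 1000 bp, the upper 50% of each list, lists of equal length, other ranking sets and windows, each library left out, and the replicate number as a block.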

Additional observations from a re-analysis of the deposited data

How the results depend on the processing

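With all 4 libraries, 46 of 78 recomputed differences of the 13 regions were equal to the reported ones and so add nothing on the sign. They came from other joining distances, the mean of a region's summits and the replicate block. The other 32, from the upper 50% of each list, lists of equal length and ranks over the shared regions, kept their sign. A summit list limits what can be read: it has no depth, and presence turns on the authors' threshold. The median difference, 0.123 points, ranged from -0.844 to 3.82 when each library was left out in turn, highest without KO1 replicate 1.

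Joining up to 250 bp left 7 of the 13 regions in all 4 lists, without 4 CD44 regions, the strongest and that near the downstream edge among them, and without the strongest KLF4 region and the MYC region toward the 3′ end, with 2 in place of 4 where KO1 was below parental cells and 1 in place of 0 found in the parental lists alone. In the upper 50% of each list, 7 regions were in all 4 lists, which left out SOX2, both weaker KLF4 regions and 3 CD44 regions, 1 with KO1 above and 2 with KO1 below, and the mean number of summits in the windows was 8.75 in place of 18.75 by construction. With all lists as short as the shortest, 4 regions were in the KO1 lists alone in place of 2. With a library left out, a single library stands for a genotype: the regions with KO1 above ranged from 3 to 7, those below from 4 to 6, those in all lists from 11 to 14, those in the parental lists alone from 0 to 3 and those in the KO1 lists alone from 3 to 5. Such separations are easier to reach with a single library, and the shares over the genome under these settings were not computed.

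Of 49 differences with a library left out, 5 changed sign, at 4 regions, and the others kept it. In the few further cases a region had no value, because the remaining summits were not joined. At SOX2 the difference ranged from -6.68 to 20.7, at POU5F1 from -14.9 to 3.82, at the MYC region toward the gene's start from -2.23 to 2.48 and at the other MYC region from -8.08 to 3.21. The differences at the KLF4 region of largest fall ranged from -30.8 to -19.5, and at the CD44 region near the downstream edge from 18.6 to 22.96 over the 3 settings that gave a value. At the other KLF4 regions they ranged from -9.44 to -1.90 and from 7.31 to 17.8, and at the CD44 regions of largest fall and of narrowest position from -42.6 to -15.1 and from 4.02 to 11.8.

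A fit with a replicate block gave differences equal to the unblocked ones by construction, 0.123 for the median, and no two-sided p below 0.5 is possible with 2 pairs. Both pairs moved the same way at 8 of the 13 regions, a count whose share over the genome was not computed. Where the genotypes do not overlap, as at 7 of the 13 regions, both pairs must move the same way, so this is not a separate observation. Whether the replicate numbers pair the libraries is unknown. The percentile differences between replicates in parental and KO1 cells had a correlation of 0.00722 across all shared regions. That value cannot settle the pairing, as a percentile hides a shift common to a whole library.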
